A study of Mus musculus with 6 samples.

Results

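Ribosomal protein genes were taken from the count table by their symbols, as every row named Rpl or Rps followed by a number, by p0, p1 or p2 or by the letter a, with the suffixes used for paralogs. The rule found 89 genes among the 57010 rows, 53 of the large and 36 of the small subunit. GENCODE M21, an annotation of the mouse genome build GRCm38, lists 83 of them as protein-coding and 6 as processed pseudogenes, which are Rps3a2, Rps3a3, Rps4l, Rps12l1, Rpl6l and Rpl32l. The rule left out ribosomal protein genes with other kinds of names, such as Fau, Rack1 and Rpl36al, which are described separately.

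The cytosolic ribosome is built from a large and a small subunit, each a core of ribosomal RNA dressed with ribosomal proteins, of which nearly all are present once per ribosome. Their genes are scattered over the genome but are expressed together at high levels. Most of their mRNAs start with a C followed by a run of pyrimidines, the terminal oligopyrimidine or TOP motif, through which the mTOR pathway controls their translation. A few members have a paralog used in particular tissues, such as Rpl3l in skeletal and heart muscle and Rpl10l and Rpl39l in the testis. In blood formation the genes are known for Diamond-Blackfan anemia, a failure of red cell production that follows the loss of 1 copy of a ribosomal protein gene.

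RNA was sequenced from 6 libraries of monocytes, which were obtained by negative selection from the bone marrow of C57BL/6 mice (C57Bl/6J in the paper's methods) 1 year of age, a method that keeps any cell the antibodies do not hold back. The femur group held libraries S13, S15 and S18 and the mandible group held S16, S19 and S23, with no treatment and no engineered allele in either group. The paper names male and female mice, and the labels give neither the sex nor the animal of a library, so the p-values measure only the spread between these libraries. The totals were 15718782 to 25371474 counts per library, and a gene with 0 counts may still have had up to 3, which is 0.118 to 0.191 counts per 1000000 (CPM) by counting error alone.

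Libraries differed in ways other than skeletal site. Library S23 held 1602 CPM of Xist and 0 counts over 4 Y-linked genes, whereas the other 5 libraries held at most 0.606 CPM of Xist and 2772 to 4590 counts over the Y-linked genes. The defining markers of monocytes were detected in every library, and the 12 on the list summed to 3203 to 5540 CPM in femur and 3113 to 5898 CPM in mandible libraries, with none called. Markers of other cells were also present and differed between the sites. The 10 mesenchymal and bone markers summed to 311 to 427 CPM in femur and 9326 to 15800 CPM in mandible libraries (9 called higher), and the 8 markers of tooth epithelium summed to 1.27 to 5.07 against 5818 to 11399 CPM (6 called higher). Cxcl12 of the bone list went the other way, at 4400, 3226 and 4037 counts in S13, S15 and S18 and 693, 1215 and 2114 in S16, S19 and S23. It had the most counts of that list in each femur library. Epcam of the tooth list overlapped, at 19, 27 and 80 counts in the femur and 9, 40 and 32 in the mandible libraries. The 7 megakaryocyte markers summed to 571 to 914 CPM in femur and 76.4 to 107 CPM in mandible libraries (6 called lower), and the 9 erythroid markers to 222 to 1516 against 99.0 to 180 CPM (3 called lower). None of these lists had a marker at 0 counts in all libraries of a group. In bulk RNA, fewer cells of a type and less RNA per cell cannot be told apart.

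Start sites of members were read from RefSeq promoters of GRCm38.p6, from 15 bases before the annotated start to 15 bases from the start on, to show examples with and without the letters of a TOP motif. A promoter was found for 64 of the 89 members (71.9%), which is under 80%, so a check of the motif over all members is void. Capitals mark an unbroken run of at least 5 C or T that begins with C at the annotated start, a feature found in 3.01% of the 27025 genes with a promoter on the strand of the gene. It was found in 14 of the 64 members with a promoter, so the 6 windows printed with a run are not typical of the annotated starts. Rps21, Rpl38, Rpl35a and Rps27 were called lower in the mandible by the test across all genes, and Rps6 and Rplp2 were not called.
Rps21, chr2:180257364-180257393, plus strand: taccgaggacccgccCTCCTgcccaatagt
Rpl38, chr11:114668565-114668594, plus strand: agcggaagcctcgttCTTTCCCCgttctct
Rpl35a, chr16:33056467-33056496, plus strand: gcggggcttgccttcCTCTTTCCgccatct
Rps27, chr3:90213634-90213663, minus strand: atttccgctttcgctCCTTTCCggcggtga
Rps6, chr4:86857353-86857382, minus strand: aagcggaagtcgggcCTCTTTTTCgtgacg
Rplp2, chr7:141447636-141447665, plus strand: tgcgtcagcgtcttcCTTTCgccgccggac
Rps25, chr9:44407699-44407728, plus strand: tttttccgacatcttagcgaggctgctgtg
Rpl3l, chr17:24727811-24727840, plus strand: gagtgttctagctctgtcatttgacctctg
The muscle paralog Rpl3l, the only member called higher in the mandible, had no such run at either of its 2 annotated starts, of which the first is printed, and Rps25, called lower, had none at its start, so no capitals are shown for them. Rps21 and Rpl35a each have more than 1 annotated start, and the start with the run is the one printed. A run is a match of letters at an annotated start and says nothing of whether the start is used in these cells.

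Ribosomal protein genes took a larger share of the counts in femur-derived than in mandibular-derived monocytes. The share was 5.46% in S13, 2.83% in S15 and 4.25% in S18 of the femur, and 1.82% in S16, 2.61% in S19 and 2.51% in S23 of the mandible. The mean was 4.18% ± 1.32 (SD, n = 3) in the femur and 2.31% ± 0.43 (SD, n = 3) in the mandible. The groups did not overlap, but S15 lay close to the highest mandible library and was the lowest femur library in 81 of the 86 tested members. S13 was the highest of all 6 libraries in 71 members, and S16 was the lowest in 62. With ribosomal RNA genes left out of the total, the femur shares were 3.50 to 6.94% and the mandible shares 2.26 to 3.06%.

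Other cell markers moved with the member share among the femur libraries. The 10 neutrophil markers summed to 32930 CPM in S13, 3722 CPM in S15 and 23617 CPM in S18, and to 3962 to 10369 CPM in the mandible (1 called lower). The 6 progenitor markers summed to 1054 CPM in S13, 347 CPM in S15 and 1068 CPM in S18, and to 232 to 422 CPM in the mandible, with none called. Libraries S13 and S18 were therefore high in members and in both marker sums, while S15 was nearer to the mandible in these sums. Among the mandible libraries the order differed, since S16 had the lowest member share (1.82%) and S23 the lowest of both marker sums. Not every neutrophil marker kept the pattern, and Ltf had 58059, 7206 and 54601 counts in the femur and 30753, 56832 and 13757 in the mandible libraries. Most counts of the progenitor list came from Prtn3 and Ctsg, and Kit had a similar pattern. Flt3 did not, at 280, 331 and 431 counts in S13, S15 and S18 and 588, 645 and 317 in S16, S19 and S23. Cd34 had 477, 240 and 424 counts in the femur and 652, 670 and 231 in the mandible libraries. No marker of either list was at 0 in a whole group, and the part of these cells in the member share was not tested.

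**Figure D1:**
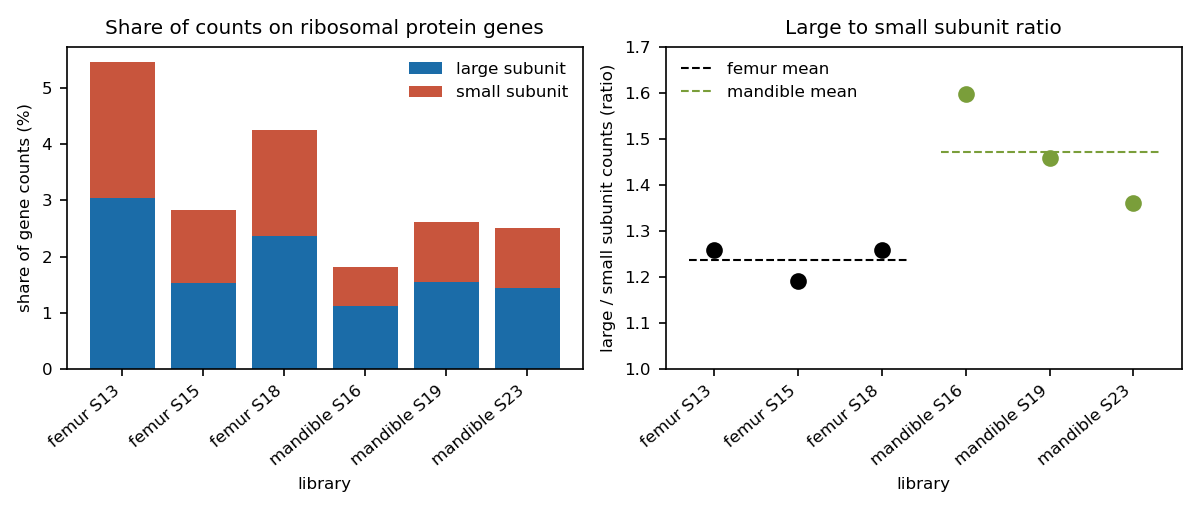
Left, the share of gene counts (%) on large subunit (blue) and small subunit (red) ribosomal protein genes, 1 bar for each of the 6 libraries. Right, the ratio of large to small subunit counts in the same libraries (points), with the mean of each group as a dashed line and an axis that starts at 1. The femur libraries held 2.83 to 5.46% and the mandible libraries 1.82 to 2.61%, and every mandible library had a higher ratio than every femur library.

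The proportion of large to small subunit counts also differed. It does not depend on the scaling between libraries, since both sums come from the same library. The ratio was 1.26 in S13, 1.19 in S15 and 1.26 in S18, and 1.60 in S16, 1.46 in S19 and 1.36 in S23. The mean was 1.24 ± 0.04 (SD, n = 3) in the femur and 1.47 ± 0.12 (SD, n = 3) in the mandible, without overlap. Per kilobase of the gene length in the table, the femur ratios were 1.49 to 1.53 and the mandible ratios 1.62 to 1.94. Among coding members other than Rpl3l with under 450 coding bases, the femur ratios were 1.22 to 1.35 and the mandible ratios 1.52 to 2.005, and among those with 450 or more it was 1.17 to 1.22 against 1.26 to 1.43. The groups were apart in both length classes. Small subunit genes were shorter, with a median coding length of 446 bases for 32 genes against 476 bases for 48 large subunit genes.

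Gene by gene, most members had lower values in the mandible, and 24 of them passed the test. Of the 89 members, 86 had enough counts to be tested, and they were tested together with all 18114 such genes by edgeR's quasi-likelihood test. A called gene had an adjusted p (Benjamini-Hochberg, over all tested genes) under 0.05 and differed at least 2-fold. SE is an approximate standard error, the size of the log2 fold change divided by the square root of the F statistic of the test. Fold changes are given as log2 of mandible over femur. In the mandible 24 of the 86 members (27.9%) were called lower, where 1.3% of all tested genes were, and 1 member was called higher, where 3.88% of all tested genes were. The log2 fold change was below 0 in 82 members, with a median of -1.03 against -0.04 over all tested genes. All 3 mandible libraries lay below all 3 femur libraries in 47 of the 86 members, against 11.5% of all tested genes, and above them in 1 member, against 12.7%. Without S15, 64 members were called lower, and without S13, S18, S16, S19 or S23 the count was 1, 6, 3, 1 and 18. The number of calls thus rested on single libraries, whereas the median stayed between -1.36 and -0.80.

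Both subunits took part. In the large subunit 10 of 51 tested members were called lower, with a median log2 fold change of -0.95. In the small subunit 14 of 35 were called lower, with a median of -1.29, and none was called higher by edgeR, DESeq2 or limma-voom. Every mandible library lay below every femur library in 25 of the 51 large and 22 of the 35 small subunit members. Over all tested genes, 1.3% were called lower and 11.5% lay apart in this direction. Whether the subunits differed in how often a member was called was not tested.

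**Figure D2:**
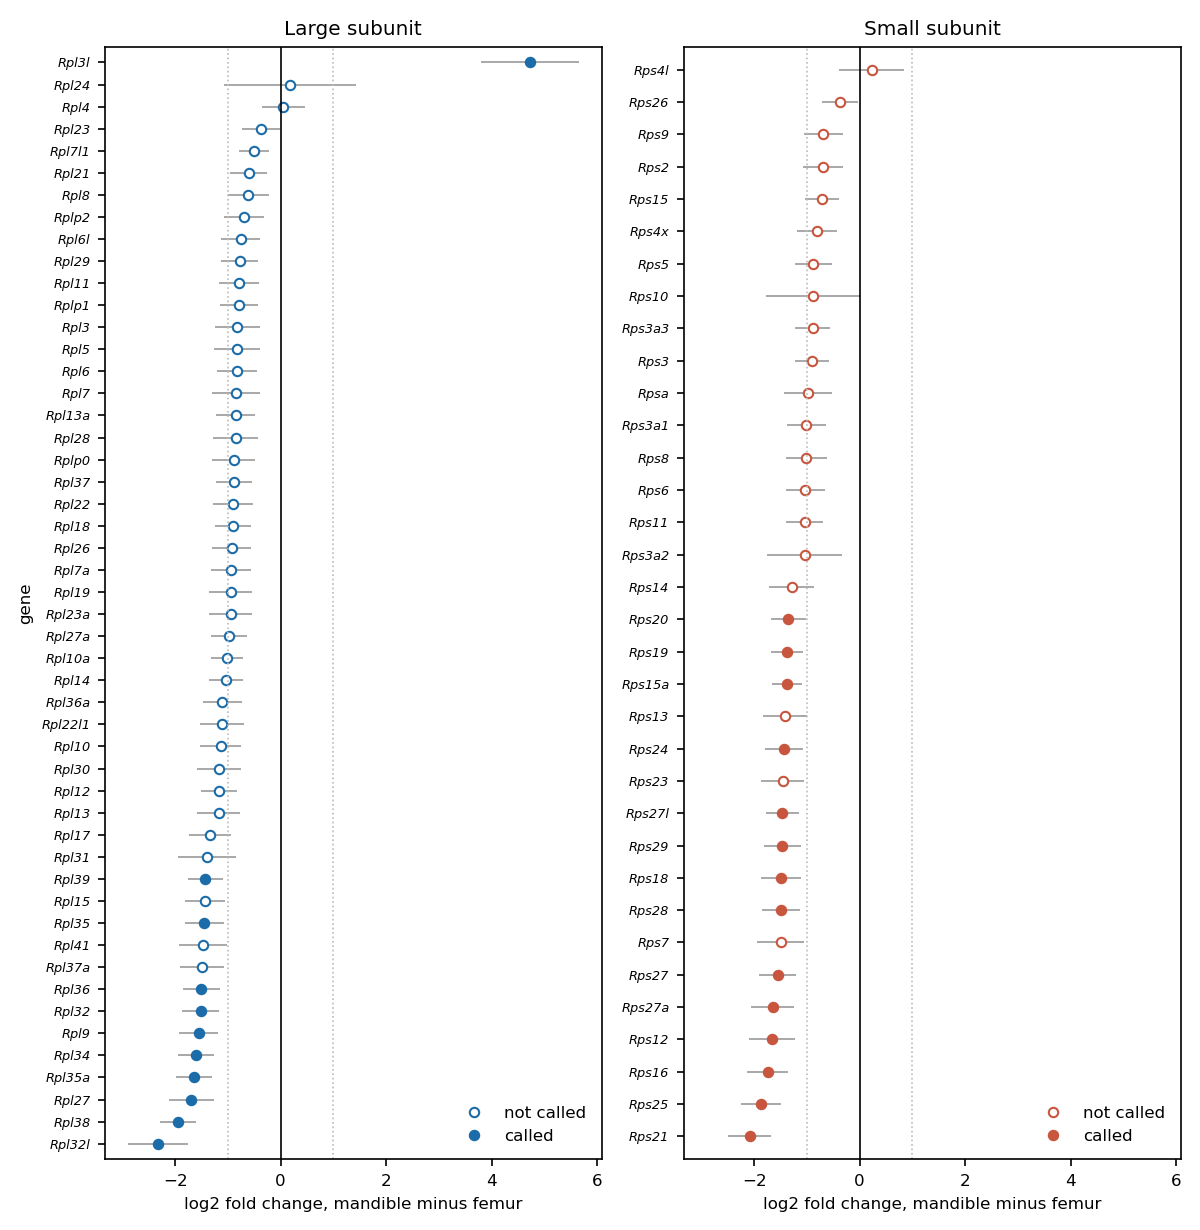
Log2 fold change of mandible over femur (horizontal axis) for tested large subunit genes (left) and small subunit genes (right), without genes that are not reported here, ordered by value, with bars of 1 standard error. Filled points passed the test, and dotted lines mark a fold change of 2. Values ran from -2.33 (Rpl32l) to 4.73 (Rpl3l), and nearly all lay below 0.

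Among the called members of the small subunit, Rps21 had the largest difference. This gene, whose protein is needed to mature 18S ribosomal RNA, occupies bases 180257377 to 180258445 of chromosome 2 in GRCm38. It measured 392, 159 and 264 CPM in S13, S15 and S18 and 33.5, 80.1 and 78.3 CPM in S16, S19 and S23. Every femur library was above every mandible library, with S15 the nearest to the mandible. The log2 fold change was -2.09 (SE 0.41, edgeR, Benjamini-Hochberg adjusted p = 0.0129). Rps25, which some viral mRNAs need to recruit ribosomes, lies on chromosome 9 from 44407139 to 44410427. It measured 437, 280 and 306 CPM in the femur libraries and 47.1, 119 and 113 CPM in the mandible libraries. The groups were well apart, at a log2 fold change of -1.87 (SE 0.37, edgeR, Benjamini-Hochberg adjusted p = 0.0135). Rps15a measured 580, 385 and 393 CPM against 165, 159 and 198 CPM, a log2 fold change of -1.38, and its mandible libraries were close to one another. Rps16 measured 546, 245 and 370 CPM against 66.4, 142 and 138 CPM, a log2 fold change of -1.74. Rps27a, which is made as a fusion with ubiquitin and so also feeds the ubiquitin pool, measured 456, 239 and 302 CPM against 51.7, 116 and 150 CPM, a log2 fold change of -1.65. S16 was the lowest library for Rps16 and Rps27a but not for Rps15a.

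Among the called members of the large subunit, Rpl38 had the smallest p of all members. Rpl38, whose loss in mice disturbs the axial skeleton, lies on chromosome 11 from 114668524 to 114672331. It measured 240, 109 and 157 CPM in S13, S15 and S18 and 31.3, 57.5 and 42.4 CPM in S16, S19 and S23. Each femur library was above each mandible library, at a log2 fold change of -1.95 (SE 0.35, edgeR, Benjamini-Hochberg adjusted p = 0.00741). Rpl38 was called lower whichever library was left out, and without S13 or without S19 it was the only member called lower. Rpl34 measured 635, 371 and 424 CPM against 107, 144 and 219 CPM, a log2 fold change of -1.61. Rpl27 measured 316, 117 and 202 CPM against 34.1, 78.2 and 84.4 CPM, a log2 fold change of -1.69, and here S15 came near to the highest mandible library. Rpl32l had the lowest fitted value of all, -2.33, at 64.6, 22.3 and 27.0 CPM against 2.50, 11.5 and 8.64 CPM. It is 1 exon annotated as a processed copy on chromosome 10, so its reads may belong to a near-identical gene such as Rpl32, itself called lower at -1.52, and its count is uncertain.

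The other 15 called members had log2 fold changes between -1.66 (Rps12) and -1.35 (Rps20). They were Rps12, Rps18, Rps19, Rps20, Rps24, Rps27, Rps27l, Rps28 and Rps29 of the small subunit and Rpl9, Rpl32, Rpl35, Rpl35a, Rpl36 and Rpl39 of the large subunit. In all 24 called members the groups were apart. S13 was the highest library in 23 of them and S15 in 1, Rps27l.

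**Figure D3:**
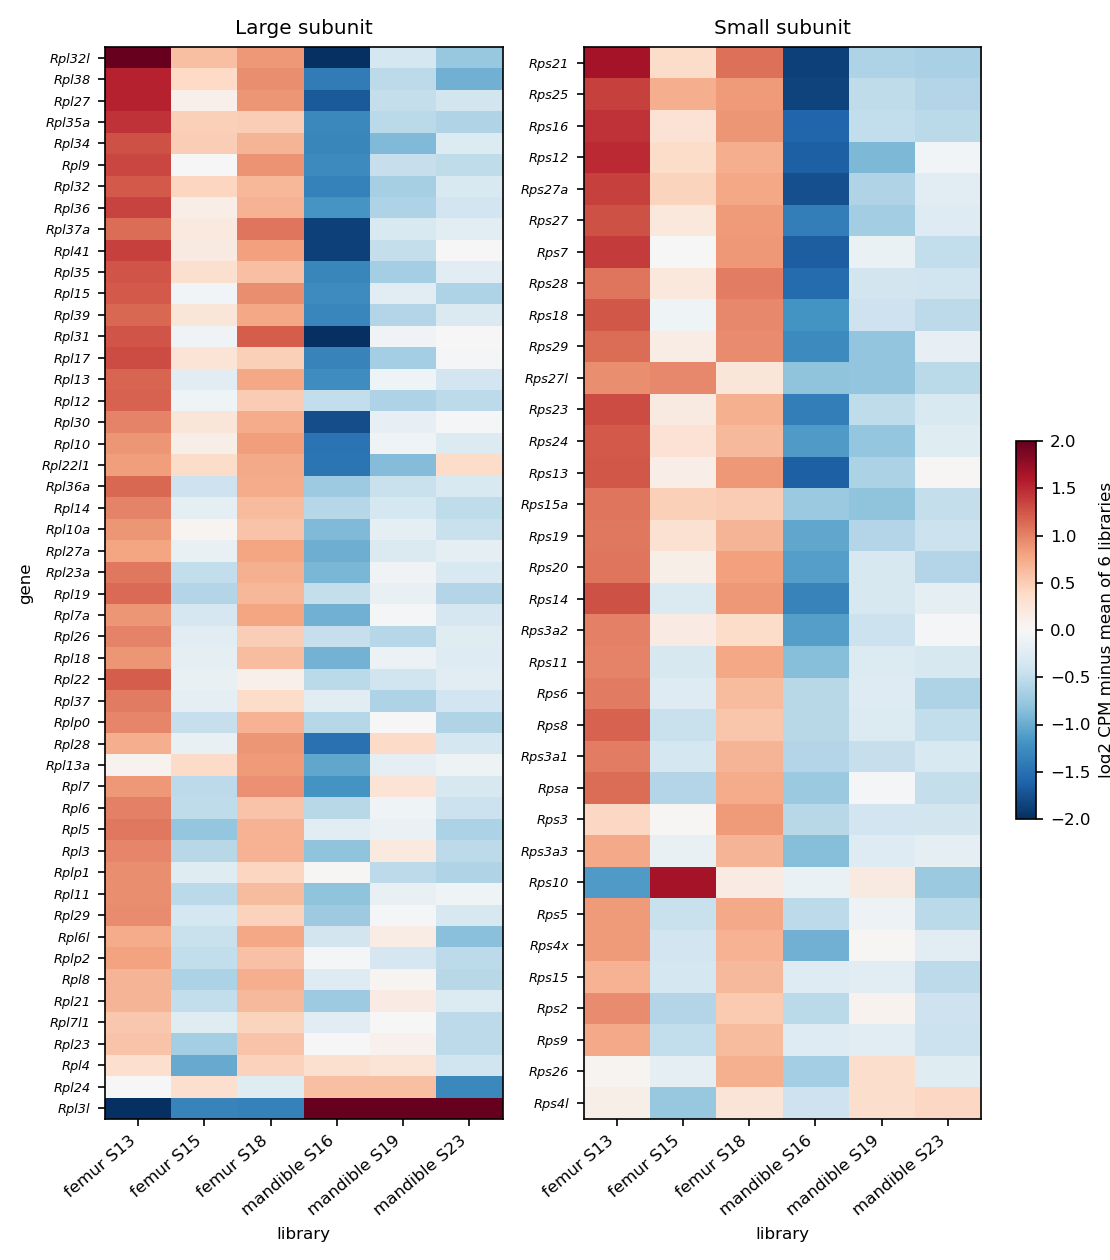
Level of tested members in each of the 6 libraries, as log2 CPM (plus 0.1 CPM) minus the mean of the 6 libraries, for the large (left) and small subunit (right), ordered by fold change and without genes that are not reported here, with colors capped at 2 in both directions. S13 was the highest library in 71 of the 86 members and S16 the lowest in 62, and S15 was near the middle for most.

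Of 9 members listed here for mutations in Diamond-Blackfan anemia, 3 were called lower by the same test as above, and the other 6 did not pass. The list was fixed by hand and need not hold every member mutated in the disease. The share of 33.3% was near the 27.9% of all tested members, where 1.3% of all tested genes were called lower. Rps19, the member most often mutated in patients, measured 758, 452 and 587 CPM in femur and 178, 244 and 270 CPM in mandible libraries, a log2 fold change of -1.38 (SE 0.31, edgeR, Benjamini-Hochberg adjusted p = 0.0269). Rps24 measured 1298, 677 and 874 CPM against 253, 327 and 469 CPM, a log2 fold change of -1.44. Rpl35a measured 224, 114 and 116 CPM against 33.7, 56.9 and 54.5 CPM, a log2 fold change of -1.65. All 3 had every femur library above every mandible library. The 9 erythroid markers given above were highest in S13, at 1516 CPM, and summed to 222 CPM in S15 and 267 CPM in S18. S13 was also the highest library for these 3 genes, as it was for 71 of the 86 tested members. The part of erythroid cells was not tested. Among those that did not pass, Rps7 (-1.50) had no overlap between the groups, and Rps26 at -0.37 was measured at 196, 164 and 307 CPM against 118, 241 and 159 CPM, so the groups overlapped.

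The proteins of the acidic stalk, which recruits and activates elongation factors, were not called. Rplp0, the base of the stalk, measured 2424, 893 and 1996 CPM in femur and 832, 1224 and 811 CPM in mandible libraries, a log2 fold change of -0.89 (SE 0.41). Rplp1 and Rplp2, the acidic proteins bound to it, had log2 fold changes of -0.79 and -0.69. Their direction turned with a correction for length, Rplp1 to 0.14 with the tabulated length and Rplp2 to 0.077 with the coding length. In all 3 genes S15 lay within the range of the mandible. With edgeR, 0 of 3 were called and 0 had an unadjusted p under 0.05, and with DESeq2 and limma-voom 0 were called and 3 and 2 had an unadjusted p under 0.05. Rpl5 and Rpl11, which with 5S ribosomal RNA form the particle that binds Mdm2 when ribosome assembly is disturbed, stood at -0.83 and -0.78. Neither was called by any of these tools, although both had an unadjusted p under 0.05 with DESeq2.

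Members known for other roles were below 0 without passing the edgeR test. Rps6, the substrate of the S6 kinases below mTOR, measured 1723, 698 and 1294 CPM against 571, 697 and 546 CPM, with the groups just apart at S15 and S19, and its log2 fold change of -1.03 did not pass the test (edgeR, Benjamini-Hochberg adjusted p = 0.168). Rpsa, also known as the laminin receptor, was at 4237, 1308 and 3271 CPM against 1168, 1916 and 1412 CPM, with S15 inside the range of the mandible, and was not called at -0.97. Rps3, which lines the entry of the mRNA channel, stood at -0.90, and Rps14, which is lost in the 5q- syndrome of the marrow, at -1.29, neither called by edgeR. DESeq2 called Rps6 and Rps14 lower but not Rpsa or Rps3.

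Of the 4 members on chromosome X, Rpl39 was called lower at -1.43, while Rpl10 (-1.13), Rpl36a (-1.11) and Rps4x (-0.81) were not called by edgeR. With DESeq2, Rpl10 and Rpl36a were called lower too. Rpl39 measured 208, 111 and 160 CPM in femur and 38.0, 62.6 and 77.0 CPM in mandible libraries, with S23, the library with Xist, the highest of the mandible, and without S23 its log2 fold change was -1.72 (edgeR, Benjamini-Hochberg adjusted p = 0.0387). The call was also kept without S15 but was lost without S13, S18, S16 or S19, with adjusted p of 0.0949 to 0.148 from edgeR. Rps4x measured 669, 286 and 601 CPM against 190, 377 and 322 CPM, with overlap at S15.

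A small number of members stood at or near 0. Rpl4, a core protein of the exit tunnel, measured 1014, 402 and 1103 CPM in femur and 1009, 978 and 613 CPM in mandible libraries. Its log2 fold change was 0.05, with an interval of 2 standard errors from -0.77 to 0.86. A change of 1 in either direction lay outside the interval, while smaller ones between these bounds did not. Rpl23 (-0.38) and Rps26 (-0.37) were also near 0, and in both the groups overlapped.

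Levels between genes can be compared only per length. Per kilobase of the gene length in the table and as a mean of the 6 libraries, the highest members were Rplp1 at 1606, Rps23 at 922, Rplp0 at 822 and Rpl26 at 819 CPM per kilobase. That length covers all exons of a gene and can exceed the length of its main transcript in GENCODE M21. It was 1444 against 606 bases for Rpl26 and 499 bases by both for Rplp1, so the order depends on the length used. The place of Rps23 rested on the femur, with a mean of 1352 CPM per kilobase there and 492 in the mandible, where Rplp0 (576), Rpl26 (564) and Rpl19 (537) were above it. The lowest tested members were Rpl24 at 1.19 and Rps10 at 1.37 CPM per kilobase, both encoded by genes that every ribosome needs. Rpl24 had 7 to 37 counts per library and Rps10 20 to 180. In GENCODE M21, 47.0% of the exon bases of Rpl24 are shared with Gm28037 on the same strand, and 20.6% of those of Rps10 with RPS10-NUDT3 and Gm15420. Rpl13a, at 190 to 802 counts, shares 35.4% with Gm45713 and small RNA genes. The 4 rows named as pseudogenes of Rps10 held 6011 counts over the 6 libraries and Rps10 itself 398. How the counting treated reads in overlapping genes and reads with several positions is not named in the sources used here, so the levels and fold changes of these 3 genes (0.18, -0.87 and -0.85) are uncertain. The sign of Rpl24 turned with limma-voom and without S16 or S19, and that of Rps10 without S15. Over all members, 322 rows named as their pseudogenes took 0.166 to 0.267% of the counts of femur and 0.0953 to 0.124% of those of mandible libraries. With the counts of these rows added to their parent genes, 26 members were called lower.

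Rpl3l was the only member called higher in the mandible. This paralog, which takes the place of Rpl3 in striated muscle, lies on chromosome 17 from 24727820 to 24736143 with 10 exons. It had 0, 27 and 28 counts in S13, S15 and S18 and 341, 287 and 640 counts in S16, S19 and S23. In CPM this was 0, 1.24 and 1.24 against 17.1, 13.6 and 36.6, where the 0 in S13 allows up to 3 counts. The log2 fold change was 4.73 (SE 0.93, edgeR, Benjamini-Hochberg adjusted p = 0.0123). The call was lost with limma-voom (adjusted p = 0.0588), without S19 (adjusted p = 0.050002 from edgeR) and without S23 (adjusted p = 0.0721 from edgeR), and the gene was not tested where 10 counts were asked of every library. Its counterpart Rpl3 measured 1230.4, 425 and 1006 CPM in the femur libraries and 358, 715 and 433 CPM in the mandible libraries, with overlap at S15, and was not called at -0.82.

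Skeletal muscle markers moved with Rpl3l. All 11 on the list, among them the muscle actin Acta1 and the myosin Myh4, were called higher in the mandible. Their sum was 22.1, 69.7 and 12.1 CPM in S13, S15 and S18 and 3430, 1638 and 5600 CPM in S16, S19 and S23. The order of the mandible libraries was the same for Rpl3l and for this sum, with S23 the highest and S19 the lowest. Myh4 did not keep this order, at 1321, 979 and 318 counts in S16, S19 and S23. In the femur the order differed, since S13 had 0 counts of Rpl3l and a higher marker sum than S18, and S15 and S18 were at the same level of Rpl3l. No muscle marker was at 0 in a whole group, although Mb had 0 counts in S13 and S18. The part of muscle RNA in the Rpl3l counts was not tested. Per 1000 counts of Rpl3 there were 0, 2.93 and 1.23 counts of Rpl3l in the femur and 47.7, 19.1 and 84.5 in the mandible, so Rpl3 remained the main form in every library.

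**Figure D4:**
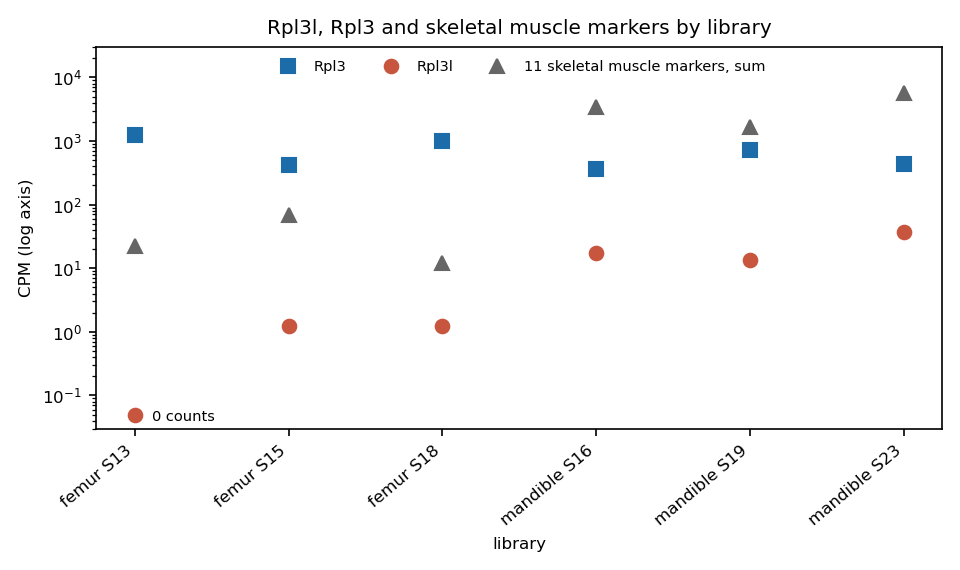
Levels of Rpl3l (circles), Rpl3 (squares) and the summed 11 skeletal muscle markers (triangles) in each library, in CPM on a log axis, where the 0 counts of Rpl3l in S13 are drawn at the bottom. Rpl3l was at 13.6 to 36.6 CPM in the mandible and at most 1.24 CPM in the femur, and the muscle markers summed to 1638 to 5600 CPM against 12.1 to 69.7 CPM.

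Ratios of a paralog to its counterpart within a library were compared for 5 pairs by an exact two-sided permutation test, whose smallest p with 3 against 3 libraries is 0.1. The log2 ratio of Rpl3l to Rpl3 was higher in the mandible by 6.60 (exact permutation p = 0.1, 0.25 adjusted over the 5 pairs), a size that depends on the pseudocount of 0.5 used for the library with 0 counts and was 4.46 to 7.99 with 1 library left out. The log2 ratio of Rps4l, annotated as a processed pseudogene, to Rps4x was higher by 1.02 (exact permutation p = 0.1, adjusted 0.25). Rps4l itself had 61 to 131 counts in femur and 72 to 130 in mandible libraries, so the ratio differed with the level of Rps4x. For Rps27l, a target of p53, and Rps27, both called lower at -1.46 and -1.55, the difference of the log2 ratios was 0.13 (exact permutation p = 0.7). Rpl7l1 against Rpl7 differed by 0.35 (exact permutation p = 0.5) and Rpl22l1 against Rpl22 by -0.53 (exact permutation p = 0.3). None of the 5 pairs could pass the threshold in a design of this size.

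The testis paralogs were almost silent. Rpl39l had 6 counts in S13, 7 in S15 and 0 in the other 4 libraries, Rpl10l had 15 counts in S15 and 0 elsewhere, and Rps12l1, an annotated pseudogene, had 1 to 18 counts. These 3 failed the filter on low counts and were not tested. Of the 5 male germ line markers, Prm1 and Prm2 had 0 counts in all 6 libraries, Tnp1 had 3 counts in S15 and 0 elsewhere, Dazl had 7 in S15, 22 in S23 and 0 elsewhere, and Ddx4 had 0 to 20.

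The fold changes of the members followed their coding length. Coding length was taken from GENCODE M21 for the 81 tested members annotated as protein-coding, and across these genes, which share the same 6 libraries and are not independent, the Spearman correlation of log2 fold change with coding length was 0.53, and 0.52 without Rpl3l. With the length given in the table, which covers all exons of a gene, it was 0.12. Among members with under 300 coding bases 7 of 10 were called lower, with a median of -1.48, and from 300 to 450 bases 13 of 28, with a median of -1.36. From 450 to 600 bases 3 of 19 were called lower, with a median of -0.95. Of the 23 members with 600 or more bases other than Rpl3l, 0 were called by edgeR, although 12 had an unadjusted p under 0.05, and DESeq2 called 5 and limma-voom 1. The median was -0.92 from 600 to 900 bases. The called members thus lay at the short end, with a median coding length of 369 bases and a range from 153 to 576, against 534 bases for those not called.

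Other short coding genes also had negative medians. Their median log2 fold change was -0.65 under 300 bases, -0.62 from 300 to 450, -0.29 from 450 to 600 and -0.16 from 600 to 900, and 7.17%, 11.7%, 1.89% and 0.97% of them were called lower. In each of these 4 classes the median of the members was lower than that of the other genes. Over 13564 other coding genes the Spearman correlation of log2 fold change with coding length was 0.28. Within members, the counts of those under 450 bases per count of those of 600 bases or more were 1.02, 1.26 and 0.87 in S13, S15 and S18 and 0.77, 0.68 and 0.98 in S16, S19 and S23, so the groups overlapped at S18 and S23. After a correction for coding length within each library, which was chosen after the data were seen, 5 members were called lower (Rps21, Rps25, Rpl9, Rpl15 and Rpl38) and the median was -0.67. After a correction for the tabulated length, 8 were called lower and the median was -0.83. The part of RNA quality and of fragment length in this relation was not tested.

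**Figure D5:**
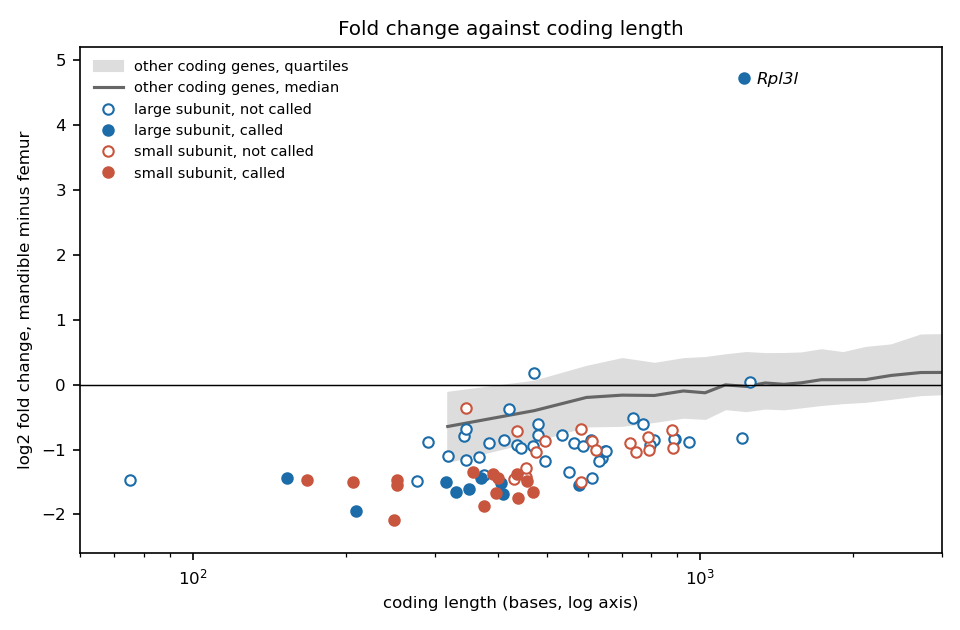
Log2 fold change of mandible over femur against coding length (bases, log axis) for large subunit (blue) and small subunit (red) members reported here, filled where called, over the median (line) and quartiles (band) of the 13564 other tested coding genes in 20 groups of equal number. Short members lay lowest, no member of 600 or more bases was called lower by edgeR without a length correction, and Rpl3l stood apart at 4.73.

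Genes that serve the ribosome without being members were not called by edgeR. Among ribosomal proteins outside the name rule the log2 fold change was -0.80 for Rack1, -0.81 for Fau and -2.10 for Rpl36al, the last at a mean of 3.08 CPM in femur and 0.713 CPM in mandible libraries. With edgeR 0 of 4 such genes were called and 0 had an unadjusted p under 0.05, and with DESeq2 and limma-voom 0 were called and 2 and 1 had an unadjusted p under 0.05. Of 23 translation factors and other TOP mRNAs 0 were called by any of the 3 tools, 3 had an unadjusted p under 0.05 with edgeR, and the median was -0.37. The elongation factor Eef1a1 stood at -0.30, Eef2 at 0.33 and Eef1b2 at -0.89. Of 20 regulators of growth and of TOP mRNAs, such as Larp1 (0.18), 0 were called by any of the 3 tools and 1 had an unadjusted p under 0.05, with a median of 0.04. Of 41 ribosome assembly genes 0 were called by edgeR, 4 had an unadjusted p under 0.05 and DESeq2 called 1, with a median of -0.20. The values of this list ran from -1.38 for Nop10 (edgeR, Benjamini-Hochberg adjusted p = 0.058) to 0.62 for nucleolin (Ncl). Nop56 stood at -0.75, and none of these was called by edgeR. Of 13 genes of RNA polymerase I and its factors 0 were called by any of the 3 tools and 1 had an unadjusted p under 0.05, with a median of -0.09. The 4 ribosomal proteins outside the name rule were all below 0, with a median of -0.86 against -1.03 for the members. Without S23 their median was -1.24, and that of the members was -1.17. The medians of the other lists were nearer to 0, and the difference between lists was not tested.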

How the data were processed

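Monocyte RNA of 3 femur and 3 mandible libraries was measured by bulk RNA-seq. Paired-end reads were trimmed by the authors (Trimmomatic) and mapped to GRCm38 with HISAT2 2.1.0, and reads per gene were counted with featureCounts, whose version and settings for strand and multiple positions are not given in the sources used here. The deposited values are raw counts, with a gene length per row. The intervals in the table do not match GENCODE M21 genes, so positions, exons and coding lengths were taken from M21 by Ensembl identifier, which matched 52029 of 57010 rows and all 89 members.

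Counts were filtered with filterByExpr (minimum count 10, minimum total 15), scaled by TMM and tested with the quasi-likelihood test of edgeR 4.0.16 in R 4.3.3 (prior count 0.125), without covariates, and p-values were adjusted by Benjamini-Hochberg over all 18114 tested genes. Calls needed an adjusted p under 0.05 and a 2-fold difference. CPM are TMM-scaled. Library totals were 15718782 to 25371474 counts.

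The members and the gene lists were chosen with earlier results of these data known. Genes were named by a rule: up to 10 called members in each direction by p, paralogs and their counterparts, the extremes of level and of fold change in each subunit, members of the stalk, the 5S particle, chromosome X and Diamond-Blackfan anemia, a few well-known members, members that failed the filter, and the most abundant genes of the other lists. The other called members, Rpl15, Rpl19, Rpl23, Larp1, Eef1b2, Nop56 and Nop10 were named after their values were seen. Of the symbols in the other lists, 3 had no row. A few members are counted but not reported by name here.

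Alternatives were DESeq2 1.42.0, limma-voom (limma 3.58.1), RLE size factors, no factors, TMM without the members, removal of ribosomal RNA genes, 2 other filters, other thresholds, a loess correction (span 0.4) for the length in the table, and each library left out in turn. The correction for coding length and the addition of pseudogene rows were chosen after seeing the data. The fit was tested on simulated data.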

Additional observations from a re-analysis of the deposited data

How the results depend on the processing

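No paired analysis was possible because the groups share no replicate number in the labels. The members called lower numbered 40 with DESeq2, 43 with all genes that had a count, 9 without normalization factors, 8 with the length correction, 5 with the coding length correction and 1 at an adjusted p under 0.01, and 1 to 64 when 1 library was left out. The member called higher, Rpl3l, was not called (0 members) with limma-voom, with 10 counts in every library, at an adjusted p under 0.01 and without mandible S19 or S23, so that the count was 0 to 1 over the left-out libraries. Over all genes 457 were called lower and 1091 higher with DESeq2, 157 lower without normalization factors, 571 lower with all genes that had a count, and 61 lower and 384 higher at an adjusted p under 0.01. With 1 library left out these counts were 58 to 608 lower and 376 to 957 higher, and the median of all genes moved to -1.09 with all genes that had a count. The small subunit median was -0.71 with the coding length correction. With a library left out the medians were -1.36 to -0.80 (members), -1.28 to -0.75 (large subunit) and -1.53 to -1.12 (small subunit). The causes were not tested.

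Some members changed sign, most of them from values near 0 and Rplp1, Rplp2 and Rps10 from values of -0.87 to -0.69. Rpl24 stood at -0.0059 with limma-voom, -0.08 without S16 and -0.15 without S19, and at up to 0.55 with another library left out. Rpl4 stood at -0.0028 with TMM without the members, -0.014 with all genes that had a count, -0.34 without S15, -0.08 without S16, -0.10 without S19 and up to 0.29 with another library left out. Rplp1 reached 0.14 with the length correction, and Rplp2 0.077 and Rps26 0.32 with the coding length correction. Without S15, Rps10 stood at 0.12 and Rps4l at -0.071, and over the other left-out libraries they reached -1.31 and 0.45. The log2 ratio of Rpl7l1 to Rpl7 differed by -0.064 to 0.57 over the left-out libraries and that of Rps27l to Rps27 by -0.14 to 0.54. The median of the growth and TOP regulators was -0.35 with the length correction and -0.14 to 0.036 over the left-out libraries, and 1 RNA polymerase I gene was called lower with the length correction. Over the left-out libraries 0 to 2 of the ribosomal proteins outside the name rule, 0 to 3 translation factors and 0 to 2 assembly genes were called lower.

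The share of counts on members stayed higher in the femur, by 1.23 to 2.55 percentage points over the left-out libraries, and the large to small subunit ratio stayed lower in the femur, by -0.29 to -0.17 (femur minus mandible). Where a group was left with 2 libraries, the spread was pooled over the 5 libraries. Rpl24, Rps10 and several paralogs had few counts, and the part of depth in this was not tested.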
